A study of Mus musculus with 9 samples.

Results

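The 10 genes described here are classical markers of GABAergic interneurons in mouse brain: the GABA-synthesising enzymes Gad1 and Gad2, the vesicular GABA transporter Slc32a1, the neuropeptide genes Sst, Npy, Vip and Cck, the calcium-binding protein genes Pvalb and Calb2, and the transcription factor Lhx6. They were taken by gene symbol from a table of 35112 genes, and each symbol named 1 row. All 10 were among the 21900 genes with enough counts to be tested. The libraries are polyadenylated RNA from the brains of wild-type C57BL/6 mice taken at 72 hours, with 3 mice in each of 3 groups. The groups are sham (control treatment), ICH (intracerebral haemorrhage, bleeding into brain tissue) and ICH+P7C3-A20 (the same injury with P7C3-A20, an aminopropyl carbazole studied as a neuroprotective compound). The age and sex of the mice, the way the bleed was made, the dose and the brain region are not stated in the sources used here. Libraries are named by group and replicate number.

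GABA is the main inhibitory transmitter of the forebrain. It is made from glutamate by the 2 glutamate decarboxylases that Gad1 and Gad2 encode, and Slc32a1 loads it into synaptic vesicles. Interneurons are usually divided by the peptide or calcium-binding protein they carry. Cells with Pvalb or Sst come largely from the medial ganglionic eminence, where Lhx6 is required for their development, while cells with Vip, Calb2 or Cck come largely from the caudal ganglionic eminence. Several of these markers are not restricted to interneurons. Gad1, Gad2 and Slc32a1 are also used by the GABAergic projection neurons of the striatum, Cck is also made by cortical excitatory neurons, and Calb2 is also found in thalamic and other subcortical neurons.

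Values below are CPM unless FPKM, the value per kilobase of transcript, is named. CPM is the estimated count scaled to a library size. That size is the library's total over the tested genes times its TMM scaling factor (0.932 to 1.10). The 3 comparisons are called the injury comparison (ICH against sham), the treatment comparison (ICH+P7C3-A20 against ICH) and the treated-to-sham comparison (ICH+P7C3-A20 against sham). Changes are on the log2 scale with an error, the size of the change over the root of edgeR's F statistic. A gene was called changed when edgeR's adjusted p over all 21900 genes was under 0.05. Libraries held 51537047 to 63324728 estimated counts over all genes. At the library sizes used for CPM, 3 counts equal 0.0455 to 0.0625 CPM, which covers counting error only. Mitochondrial transcripts, which can reflect RNA quality, made up 9.14%, 9.74% and 10.4% of sham 3, ICH 3 and ICH+P7C3-A20 2, and 14.3% to 18.5% of the other 6 libraries. Some libraries stood apart in regional neuron markers. The mean level of 11 cortical excitatory neuron genes lay 0.67 above the sham mean in sham 3, against -0.10 and -0.57 in sham 1 and 2, and at 1.87, 0.93 and 1.08 in ICH+P7C3-A20 1, 2 and 3. The mean of 14 thalamic and hypothalamic genes was -1.60 in sham 3, against 0.36 and 1.24 in sham 1 and 2. ICH+P7C3-A20 1 also stood apart in 8 oligodendrocyte genes, whose summed level was 5672 CPM there and 9204 to 15578 CPM in the other libraries. Where leaving out sham 3, ICH+P7C3-A20 1 or both ended or gave the call of a member, that value is given with the member. Pan-neuronal, astrocyte, oligodendrocyte and striatal markers were detected in each library, with no listed gene of these groups at 0.

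In sham brain the most abundant transcript per length was Sst. Its mean was 134 ± 13.5 FPKM (SD, n = 3), and its lowest sham library, at 120 FPKM, lay above the highest value of the other members, 72.3 FPKM for Gad2. Gad2 (63.9 ± 10.6 FPKM), Slc32a1 (53.2 ± 2.75), Npy (51.5 ± 14.0) and Gad1 (50.7 ± 2.93) followed, and their ranges over the sham libraries overlapped. Calb2 (26.9 ± 18.7 FPKM), Cck (19.6 ± 13.5) and Pvalb (18.9 ± 9.998) formed a lower tier whose ranges also overlapped, and the spread of each was wide. Lhx6 lay at 5.10 ± 1.13 FPKM and Vip at 0.916 ± 0.433 FPKM, with every sham value of Vip below every value of the other members. The order was different in ICH, where Sst (109 ± 20.7 FPKM) was followed by Npy (58.7 ± 6.27), with Gad2 (37.5 ± 9.15), Gad1 (30.1 ± 6.17) and Slc32a1 (29.2 ± 5.01) below it. The ranges of those 3 GABA genes overlapped each other and that of Pvalb (28.4 ± 6.97 FPKM). In ICH+P7C3-A20 the order was again led by Sst (125 ± 23.0 FPKM) and Npy (71.6 ± 6.55), and Vip was again the lowest. The sham spread separated the members as well: the highest sham library was 1.06 times the lowest for Gad1, 1.07 times for Slc32a1 and 1.10 times for Sst in CPM, but 2.67 times for Cck, 2.78 times for Pvalb and 8.16 times for Calb2.

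**Figure D1:**
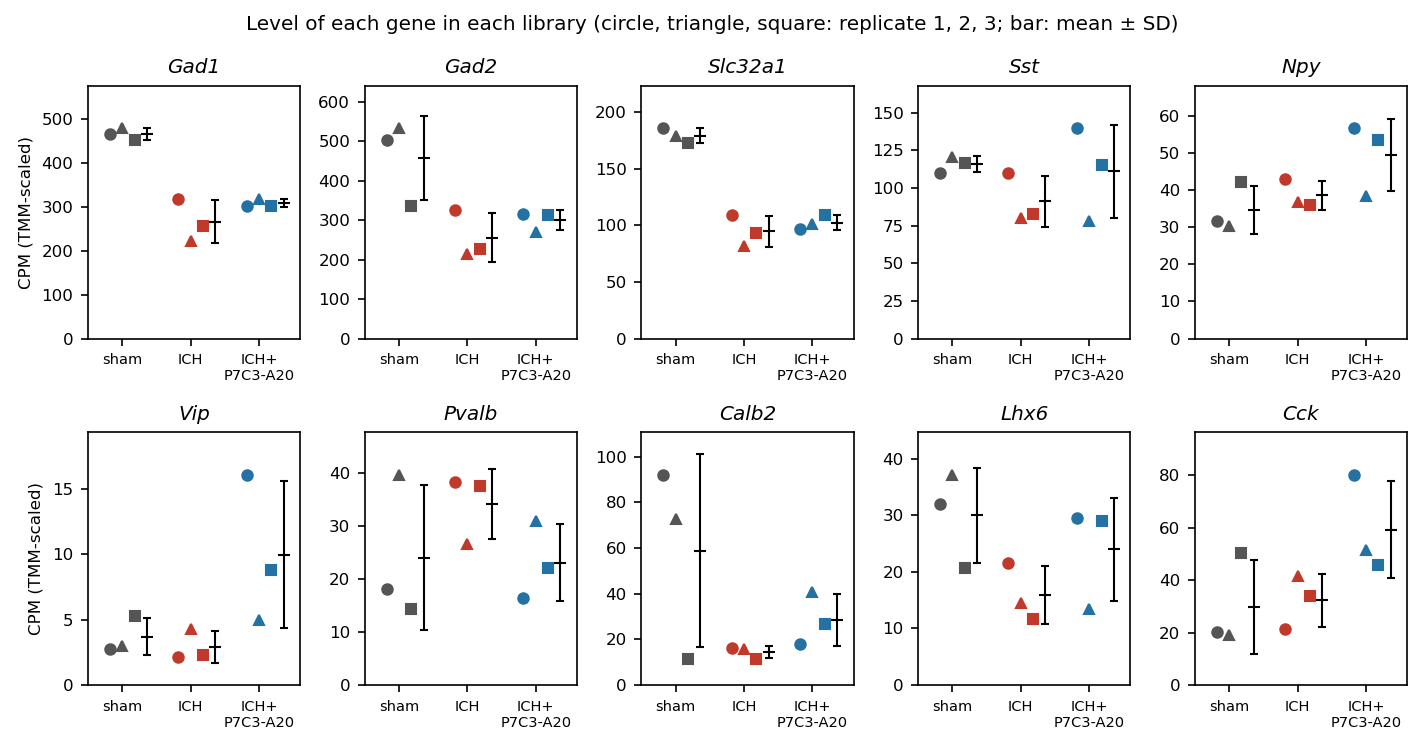
Each panel shows 1 gene in CPM on a linear axis from 0, with 1 point per library (circle, triangle and square for replicates 1, 2 and 3) and a bar for the mean ± SD of each group (n = 3). All ICH and ICH+P7C3-A20 points of Gad1, Gad2 and Slc32a1 lie below their sham points, while most other members overlap between groups.

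The injury comparison set the bleed without the compound against sham. The genes that make and load GABA fell: Gad1, Gad2 and Slc32a1 were 1.75-fold, 1.79-fold and 1.89-fold lower in ICH. Of the 7 subtype and lineage markers edgeR called 0, with 2 at an unadjusted p under 0.05, Calb2 and Lhx6, which DESeq2 called lower. The 3 called members are 3 of 10, all lower, where 10.4% of all genes tested were called lower and 15.6% higher. The median log2 change of the members was -0.58, and that of all genes tested 0.00. In bulk tissue, fewer cells of a type and less RNA per cell cannot be told apart.

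Slc32a1 had the smallest p of the members. Its sham libraries held 186, 179 and 173 CPM, its ICH libraries 109, 82.2 and 93.1 CPM, and its ICH+P7C3-A20 libraries 96.8, 101 and 109 CPM. The sham values lay close together and every haemorrhage library was well below them, treated or not. The log2 change in ICH against sham was -0.92 ± 0.11 (edgeR adjusted p = 2.02e-04).

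Gad1, which encodes the decarboxylase GAD67 that supplies most basal GABA, read 466, 480 and 453 CPM in sham, 319, 223 and 257 CPM in ICH, and 303, 319 and 303 CPM in ICH+P7C3-A20. Again no haemorrhage library reached the lowest sham value, and the treated libraries were tightly grouped. The change in ICH against sham was -0.81 ± 0.13 (edgeR adjusted p = 0.00120). Gad1 and Slc32a1 were called lower under each of the 21 alternative settings, with log2 changes of -0.96 to -0.69 and -1.03 to -0.83.

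Gad2, which encodes the synapse-associated decarboxylase GAD65, was more variable. Its sham libraries held 502, 533 and 336 CPM, its ICH libraries 327, 215 and 226 CPM, and its treated libraries 315, 271 and 313 CPM. Sham 3 was the lowest sham library by a wide margin and lay just above the highest ICH library. The change in ICH against sham was -0.84 ± 0.20 (edgeR adjusted p = 0.0110), and it was no longer called without ICH 2 (-0.72, edgeR adjusted p = 0.0551). The ratio of Gad1 to Gad2 in FPKM was 1.04 in sham 3 and 0.715 and 0.693 in the other sham libraries, and it ranged from 0.739 to 0.906 over the haemorrhage libraries. The 3 genes lie on chromosome 2 of GRCm38, Gad1 at chr2:70553072-70602014, Gad2 at chr2:22622205-22693874 and Slc32a1 at chr2:158610767-158615748, all on the plus strand. Gad1 and Slc32a1 each overlap an annotated gene on the opposite strand (Gad1os and Gm14205). The strand setting of the counting is not stated in the sources used here, so reads of these genes and their antisense partners cannot be told apart.

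Other neuron genes moved in the same libraries. Of 12 pan-neuronal genes, 9 were called lower in ICH against sham (median log2 change -0.64), as were all 12 striatal projection neuron genes (median -0.83), among them Drd1, Penk, Tac1 and Rarb. Without sham 3 and ICH+P7C3-A20 1 together these counts were 12 and 11. Over 13 alternatives they ranged from 4 to 12 and from 6 to 12, all lower. Without sham 3, 9 of the 12 striatal calls remained. Over all genes tested 10.4% were called lower in the injury comparison. Summed over the list, pan-neuronal genes held 5599.9 to 6526 CPM in sham, 3640.4 to 4125 in ICH and 4775 to 7493 in ICH+P7C3-A20. The striatal list held 3969 to 6697 CPM, 2692 to 3161 and 2476 to 3544 in the same groups, with no gene at 0. The microglia and macrophage list rose instead, from 225 to 246 CPM in sham to 1132 to 1389 in ICH and 463 to 786 in ICH+P7C3-A20, and the astrocyte list held 2682 to 2858, 6217 to 7176 and 4566 to 5546 CPM. The part of these shifts in the lower GABA genes was not tested.

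Set against the pan-neuronal mean of the same library, the GABA genes were slightly lower in ICH. This relative level, with sham at 0, was -0.19 for Gad1, -0.21 for Gad2 and -0.30 for Slc32a1 in ICH. In the treated group the values were -0.43, -0.42 and -0.64. The pan-neuronal mean itself lay at -0.75 to -0.56 in ICH, and at 0.21, -0.37 and -0.33 in ICH+P7C3-A20 1, 2 and 3. Not set against it, the 3 GABA genes were 0.12 to 0.23 higher on the log2 scale in ICH+P7C3-A20 than in ICH, without a call. By library, relative Slc32a1 was -0.04, -0.11 and 0.15 in sham. The ICH libraries stood at -0.15, -0.55 and -0.19, and the treated libraries at -1.09, -0.44 and -0.38. All 6 haemorrhage libraries were below all 3 sham libraries, though ICH 1 only narrowly. Relative Gad1 in ICH ran from -0.49 to 0.02 and overlapped the sham range of -0.09 to 0.15, while in ICH+P7C3-A20 it ran from -0.83 to -0.17 and did not. Relative Gad2 overlapped its sham range of -0.22 to 0.15 in both haemorrhage groups, at -0.49 to 0.11 in ICH and -0.72 to -0.19 in ICH+P7C3-A20. These relative levels are a description without a test.

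**Figure D2:**
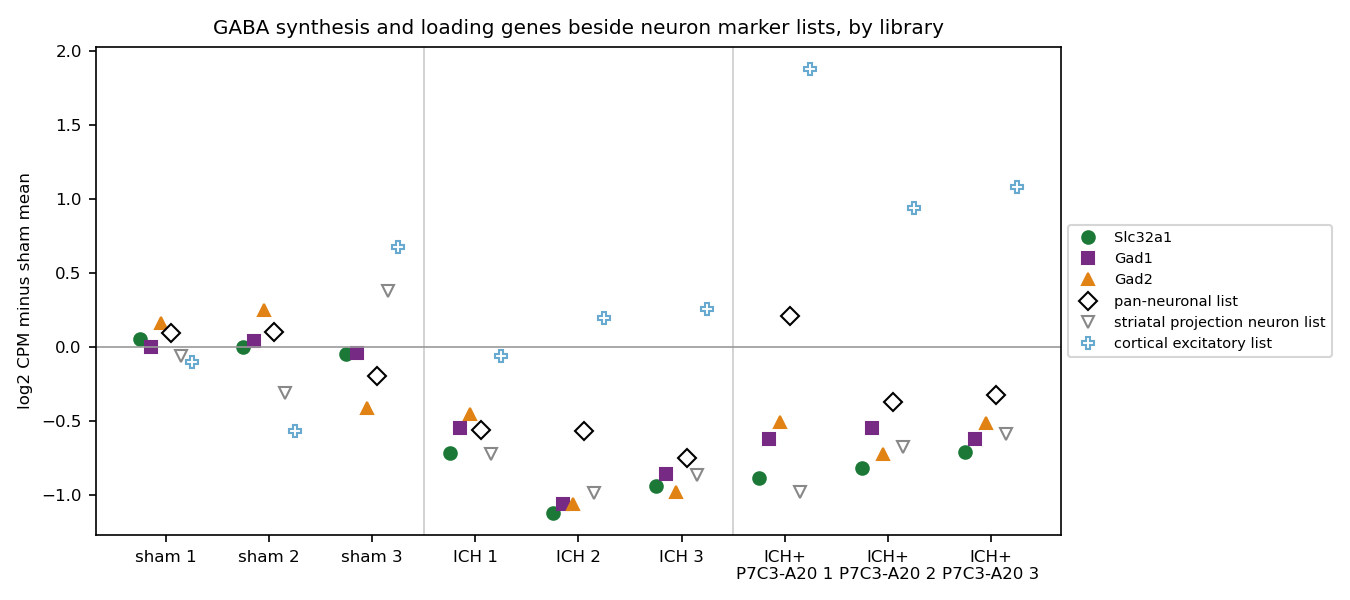
Points show, for each of the 9 libraries on the x axis, the log2 CPM minus the sham mean of Slc32a1, Gad1 and Gad2 (filled) and the mean over the pan-neuronal, striatal and cortical excitatory lists (open). In the treated libraries the GABA genes lie from -0.89 to -0.51, near the striatal list at -0.98 to -0.59, while the pan-neuronal list lies at -0.37 to 0.21 and the cortical list at 0.93 to 1.87.

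The treatment comparison set the bleed with the compound against the bleed without it. For the 3 GABA genes the groups overlapped and no change was called: the log2 changes were 0.21 ± 0.13 for Gad1, 0.23 ± 0.20 for Gad2 and 0.12 ± 0.11 for Slc32a1 (edgeR adjusted p = 0.364, 0.548 and 0.597), and none was called under the 21 alternatives. Vip alone of the 10 members was called, and it was higher, where 2.69% of all genes tested were called higher and 6.05% lower. The median log2 change of the members was 0.32, against -0.01 for all genes tested. Of the 12 striatal genes edgeR and DESeq2 called 0, with 1 at an unadjusted p under 0.05. In the same comparison 2 pan-neuronal genes rose, Map2 by 0.66 ± 0.15 and Rbfox3 by 0.59 ± 0.15 on the log2 scale. Both calls were lost without ICH+P7C3-A20 1 (0.51 and 0.43, edgeR adjusted p = 0.0708 and 0.137), and without sham 3 as well Map2 was called again (0.51, adjusted p = 0.0319) while Rbfox3 was not (0.0811).

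The treated-to-sham comparison gives the remaining distance from the uninjured level. It shares its libraries with the others, so the values are given side by side and are not independent. Slc32a1 was still 1.75-fold lower (-0.81 ± 0.11, edgeR adjusted p = 0.00255) and Gad1 1.51-fold lower (-0.60 ± 0.13, adjusted p = 0.0243). These 2 of 10 were the called members, both lower, where 0.744% of all genes tested were called lower and 4.58% higher, and the members' median was -0.19 against 0.03 for all genes. Of the 12 striatal projection neuron genes edgeR called 5 lower in this comparison, with 12 at an unadjusted p under 0.05 and a median of -0.72. Over 13 alternatives 2 to 12 of them were called, all lower. Of the 12 pan-neuronal genes edgeR called 0 (median -0.12), and the alternatives called 0 to 6, all lower. The Slc32a1 call held under all 21 alternatives. The Gad1 call was lost without sham 1, sham 2, ICH+P7C3-A20 2 or ICH+P7C3-A20 3 (edgeR adjusted p = 0.0798, 0.0645, 0.0573 and 0.101), with the log2 change between -0.62 and -0.58, and in limma on log2(FPKM + 1) and log2(FPKM + 0.1) (adjusted p = 0.112 and 0.0996). Gad2 lay at -0.61 ± 0.20 (edgeR adjusted p = 0.124), with every treated library below every sham library, and was called by DESeq2 (-0.63, adjusted p = 0.0331) and in edgeR without sham 3 (-0.79, 0.0264) and without sham 3 and ICH+P7C3-A20 1 together (-0.82, 0.0207).

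**Figure D3:**
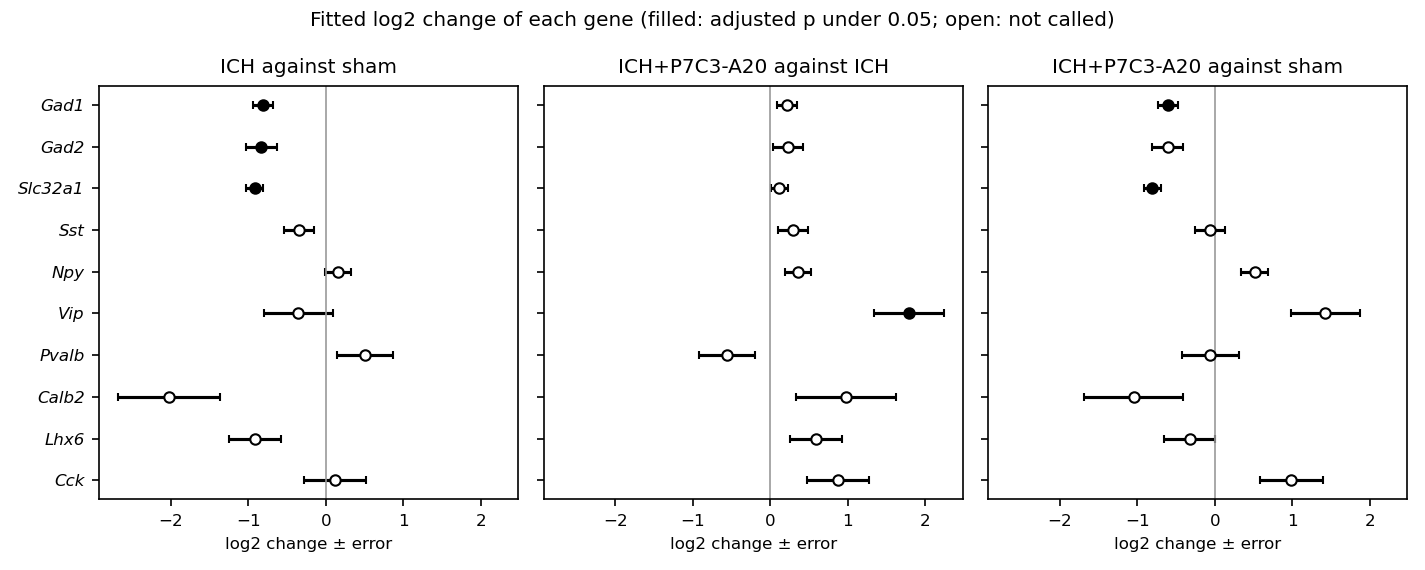
Each panel shows the fitted log2 change (x axis) of the 10 genes in 1 comparison, with bars for the error and filled points for genes with an edgeR adjusted p under 0.05. Slc32a1, Gad1 and Gad2 lie at -0.92 to -0.81 in ICH against sham, and Vip is the single filled point in the middle panel.

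Among the peptide genes, Sst is carried by dendrite-targeting interneurons and is a textbook target of cAMP signalling through CREB, the protein that binds the cAMP response element. The members' promoters were searched on both strands for that element, TGACGTCA, and for its shorter core TGACG. RefSeq's table of promoters (GRCm38.p6, from 250 bases before to 50 bases after the gene start) held 9 of the 10 members and not Calb2. The full element was found in Sst, and the core outside it in Vip, Cck and Gad2. The windows below show the matches, in capitals, of the peptide genes and of the only GABA-synthesis gene that had one, each 5′ to 3′ in the sense of the gene; a match to the opposite strand reads CGTCA.
Sst: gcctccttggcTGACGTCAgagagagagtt
Vip: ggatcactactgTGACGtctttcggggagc
Cck: cctgctggactgCGTCAgcactgggtaaac
Gad2: ccatttcccttcCGTCActctctcatctcc

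The Sst window lies at chr16:23890874-23890903 on the minus strand, with the element at bases -48 to -41 from the start. The Vip window lies at chr10:5639127-5639156 on the plus strand (core at -79 to -75), the Cck window at chr9:121495724-121495753 on the minus strand (-47 to -43) and the Gad2 window at chr2:22622282-22622311 on the plus strand (-33 to -29). The element was present in 588 of 32851 promoters of the same table (1.79%), and the core in 6837 (20.8%), which include those with the full element. Neither was found in the windows of Gad1, Slc32a1, Npy, Pvalb or Lhx6. Positions from the start count from RefSeq's gene start, which for Vip is that of the deposited table. RefSeq's start lies 122 bases downstream of the deposited one for Gad2, 114 bases downstream for Sst and 55 bases upstream for Cck, so the Gad2 and Sst windows fall inside the deposited gene bounds. The matches are letters in these windows and no measure of binding. The 3 called GABA genes were not alike in them, since Gad2 holds the core and Gad1 and Slc32a1 do not.

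Sst read 110, 121 and 117 CPM in sham, 110, 80.0 and 82.96 CPM in ICH, and 140, 78.4 and 116 CPM in ICH+P7C3-A20. ICH 1 was level with the lowest sham library, and the treated libraries spanned the values of both other groups. The log2 change was -0.35 ± 0.19 in the injury, 0.29 ± 0.19 in the treatment and -0.06 ± 0.19 in the treated-to-sham comparison (edgeR adjusted p = 0.224, 0.410 and 0.924). Sst was called in no comparison under any of the 21 alternatives.

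Npy, whose peptide is released by several interneuron classes, read 31.8, 30.3 and 42.1 CPM in sham, 43.0, 36.8 and 36.1 CPM in ICH, and 56.8, 38.6 and 53.5 CPM in ICH+P7C3-A20. Treated libraries 1 and 3 were the highest of all 9. The changes were 0.15 ± 0.17 in the injury, 0.36 ± 0.17 in the treatment and 0.51 ± 0.17 in the treated-to-sham comparison (edgeR adjusted p = 0.575, 0.225 and 0.127). The last was called without sham 3 (0.68, edgeR adjusted p = 0.0407), without ICH+P7C3-A20 2 (0.67, 0.0480) and without sham 3 and ICH+P7C3-A20 1 together (0.57, 0.0481). Relative to the pan-neuronal mean, Npy stood at 0.67 to 0.88 in ICH and 0.51 to 0.96 in ICH+P7C3-A20, all above the sham range of -0.28 to 0.49.

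Vip, whose interneurons mostly inhibit other interneurons, was the rarest member. It read 2.74, 3.02 and 5.31 CPM in sham, 2.11, 4.29 and 2.27 CPM in ICH, and 16.1, 5.01 and 8.78 CPM in ICH+P7C3-A20. The lowest ICH library held 120 estimated counts of Vip and the lowest treated library 323. All treated libraries were above all ICH libraries, but ICH+P7C3-A20 2 lay below sham 3, and ICH+P7C3-A20 1 was the highest of all. Vip was 3.44-fold higher in ICH+P7C3-A20 than in ICH (1.78 ± 0.45, edgeR adjusted p = 0.0365). The call was lost without ICH 1, ICH 2 or ICH 3, with log2 changes of 1.60, 2.19 and 1.64 (edgeR adjusted p = 0.137, 0.0540 and 0.134), and without ICH+P7C3-A20 3 (1.87, 0.0623). It was also lost without ICH+P7C3-A20 1 (1.25, adjusted p = 0.144), and without sham 3 and ICH+P7C3-A20 1 together (1.25, 0.0580). In the other comparisons the log2 change of Vip was -0.36 ± 0.44 (injury) and 1.43 ± 0.45 (treated-to-sham), without a call (edgeR adjusted p = 0.625 and 0.105). The latter was called by DESeq2 (1.41, adjusted p = 0.0160) and without ICH+P7C3-A20 2 (1.75, edgeR adjusted p = 0.0490).

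Cck, a peptide gene of basket interneurons and of cortical excitatory cells, read 20.1, 18.9 and 50.5 CPM in sham, 21.4, 41.6 and 34.0 CPM in ICH, and 80.3, 51.6 and 45.8 CPM in ICH+P7C3-A20. Every treated library was above every ICH library, and sham 3 lay between the treated libraries 2 and 3. The changes were 0.11 ± 0.40, 0.87 ± 0.40 and 0.99 ± 0.40 in the injury, treatment and treated-to-sham comparisons (edgeR adjusted p = 0.883, 0.221 and 0.231). Against sham, the treated group was called without sham 3 (1.60, edgeR adjusted p = 0.0212) and without sham 3 and ICH+P7C3-A20 1 together (1.32, 0.0151).

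Vip and Cck were high in ICH+P7C3-A20 1 and sham 3, which also had high cortical excitatory markers. ICH+P7C3-A20 1, first of the 9 in that list at 1.87, was also first in both genes, at 2.03 for Vip and 1.56 for Cck above the sham mean. Sham 3, first among sham libraries in the list, was first among them in both genes, at 0.52 and 0.90. The cortical list summed to 258 to 468 CPM in sham, 247 to 373 in ICH and 530.2 to 1488 in ICH+P7C3-A20, with no gene at 0. Of its 11 genes edgeR called 1 higher in the treatment comparison, Rasgrf2, with 7 at an unadjusted p under 0.05. Over all genes tested 2.69% were called higher there. Without ICH+P7C3-A20 1 Rasgrf2 was not called (1.135, edgeR adjusted p = 0.0863), and without sham 3 as well it was (1.135, 0.00208). Rasgrf2 was also called lower in the injury comparison (-1.36, edgeR adjusted p = 0.0152), where the median of the cortical list was -0.001. The part of the shift in the cortical list in the Vip and Cck values was not tested.

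**Figure D4:**
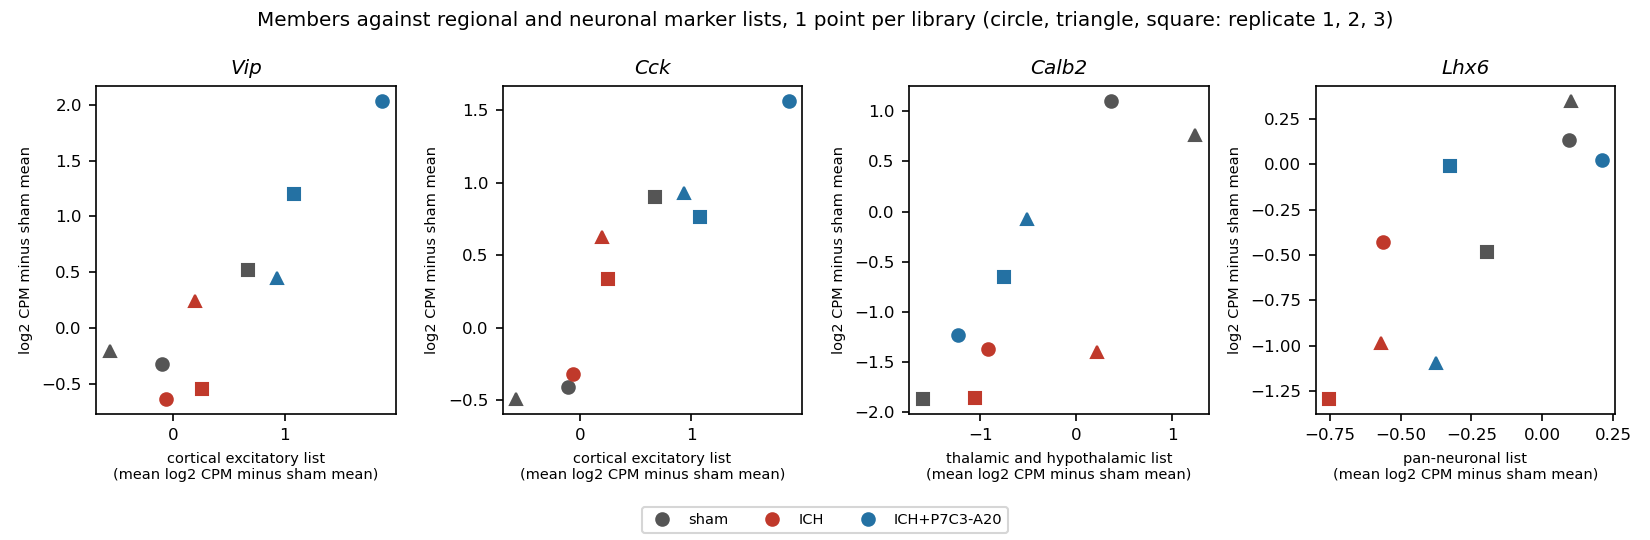
Each panel sets the log2 CPM minus the sham mean of 1 gene (y axis) against the mean of a marker list on the same scale (x axis), with 1 point per library coloured by group. For Vip and Cck, ICH+P7C3-A20 1 lies at the upper right, at 1.87 on the cortical list, and for Calb2, sham 3 lies at the lower left, at -1.60 on the thalamic and hypothalamic list.

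The calcium-binding protein genes varied widely within groups. Pvalb, the marker of fast-spiking interneurons, read 18.2, 39.7 and 14.3 CPM in sham, 38.3, 26.6 and 37.6 CPM in ICH, and 16.4, 30.9 and 22.2 CPM in ICH+P7C3-A20. Sham 2 was the highest of all libraries and the other sham libraries were among the lowest. The changes were 0.51 ± 0.36, -0.56 ± 0.36 and -0.05 ± 0.36 in the injury, treatment and treated-to-sham comparisons (edgeR adjusted p = 0.362, 0.396 and 0.967). Without sham 2 Pvalb was called higher in ICH against sham (1.08, edgeR adjusted p = 0.0193).

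Calb2, which encodes calretinin, read 92.1, 72.7 and 11.3 CPM in sham, 16.2, 15.8 and 11.4 CPM in ICH, and 17.8, 40.5 and 26.9 CPM in ICH+P7C3-A20. Sham 3 was the lowest of all 9 libraries, while sham 1 and 2 were the highest, and every treated library was above every ICH library. The change in ICH against sham was -2.02 ± 0.66 (edgeR adjusted p = 0.0548). Of the 21 alternatives 5 called it lower, among them edgeR without sham 3 (-2.51, adjusted p = 5.57e-04), without sham 3 and ICH+P7C3-A20 1 together (-2.51, 3.15e-05), and DESeq2 (-2.04, adjusted p = 0.0189). In the treatment comparison it was 0.98 ± 0.64 (edgeR adjusted p = 0.414), and it was called higher only when sham 3 and ICH+P7C3-A20 1 were both left out (1.22, adjusted p = 0.00933). Against sham, the treated group stood at -1.05 ± 0.64 (edgeR adjusted p = 0.466) and was called lower without sham 3 (-1.53, 0.0224) and without sham 3 and ICH+P7C3-A20 1 together (-1.29, 0.00849).

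Calb2 was lowest in sham 3, the library lowest in thalamic and hypothalamic markers. That list summed to 78.5 to 466 CPM in sham, 143 to 431 in ICH and 125 to 223 in ICH+P7C3-A20, with at most 2 of its 14 genes at 0 in a library. Its mean was -0.92, 0.21 and -1.05 in ICH 1, 2 and 3, where Calb2 lay at -1.37, -1.40 and -1.86 on the same scale, so that ICH 2 combined a list level near sham with low Calb2. The part of regional content in the Calb2 values was not tested.

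Lhx6 read 32.0, 37.2 and 20.7 CPM in sham, 21.6, 14.5 and 11.6 CPM in ICH, and 29.6, 13.4 and 28.9 CPM in ICH+P7C3-A20. ICH 1 was just above sham 3, and ICH+P7C3-A20 2 was as low as the lower ICH libraries. The changes were -0.92 ± 0.33, 0.59 ± 0.33 and -0.32 ± 0.33 in the injury, treatment and treated-to-sham comparisons (edgeR adjusted p = 0.0696, 0.320 and 0.695). Of the 21 alternatives 6 called Lhx6 lower in the injury comparison, among them DESeq2 (-0.93, adjusted p = 0.0180), edgeR with those groups alone (-0.91, 0.0373), without sham 3 (-1.12, 0.0460) and without ICH 1 (-1.20, 0.0445). The lowest library of each group, sham 3, ICH 3 and ICH+P7C3-A20 2, was also the lowest of its group in mitochondrial share and the highest in the ratio of Gad1 to Gad2 (1.04, 0.874 and 0.906); the part of this in the Lhx6 and Gad2 values was not tested.

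The other transcription factors of the interneuron lineage numbered 13. In the injury comparison edgeR called 2 lower, Dlx6 (-0.79 ± 0.17, adjusted p = 0.00649) and Dlx1 (-0.67 ± 0.20, 0.0342), and 1 higher, Maf (1.49 ± 0.17, 1.29e-04), and the median was -0.59. These counts of 13 are near the shares called over all genes tested, 10.4% lower and 15.6% higher. Dlx1 and Dlx6 are homeobox genes that keep GABAergic identity. Maf is used by interneurons and also by macrophages, and all 8 microglia and macrophage genes rose in the same comparison; their part in the Maf value was not tested. DESeq2 called 5 of the 13 lower, as did edgeR without sham 3 and ICH+P7C3-A20 1 together. The single call of the treatment comparison was Satb1, a chromatin organiser of Sst and Pvalb cells, which rose by 0.78 ± 0.18 (edgeR adjusted p = 0.0266). Over all genes tested 2.69% were called higher there. Without ICH+P7C3-A20 1 Satb1 was not called (0.69, edgeR adjusted p = 0.0955), and without sham 3 as well it was (0.69, 0.0051).

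Of 17 further subtype markers, edgeR called 9 lower in ICH against sham, with a list median of -0.59, where 10.4% of all genes tested were called lower. Reln, the extracellular matrix protein of neurogliaform cells, fell by 1.15 on the log2 scale (error 0.14, adjusted p = 2.03e-04), from 105, 89.9 and 138 CPM in sham to 46.3, 52.0 and 51.2 CPM in ICH. Erbb4, the neuregulin receptor of interneurons, changed by -0.97 ± 0.18, Calb1 by -0.87 ± 0.14 and Syt2, a presynaptic calcium sensor of Pvalb cells, by -0.66 ± 0.13. With treatment, set against ICH, 3 of the 17 rose: Lamp5 (0.65 ± 0.15), Reln (0.58 ± 0.14) and Erbb4 (0.69 ± 0.18), with edgeR adjusted p of 0.0262, 0.0319 and 0.0415 and a list median of 0.44. In that comparison 2.69% of all genes tested were called higher. Without ICH+P7C3-A20 1 none of the 3 was called (0.67, 0.59 and 0.47, edgeR adjusted p = 0.0661, 0.0800 and 0.138), and without sham 3 as well all 3 were. Reln read 73.1, 73.0 and 76.5 CPM in the treated libraries, above all ICH and below all sham values. It was also lower than sham in ICH+P7C3-A20 (-0.58 ± 0.14, edgeR adjusted p = 0.0400), as were Syt2 (-0.70 ± 0.13) and Calb1 (-0.58 ± 0.14). These were the 3 of 17 called in that comparison, with a list median of -0.37, where 0.744% of all genes tested were called lower. Without sham 3 the Reln and Calb1 calls against sham were lost (-0.39 and -0.50, edgeR adjusted p = 0.0510 and 0.0859), as was that of Reln without ICH+P7C3-A20 1 (-0.57, 0.0747).

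Genes that take up, break down or supply GABA, or set the chloride gradient through which it acts, numbered 9. In the injury comparison edgeR called 5, all lower (8 lower without sham 3 and ICH+P7C3-A20 1 together), with a median of -0.53. Over all genes tested 10.4% were called lower. Slc12a5, the neuronal chloride exporter KCC2, read 444, 415 and 537 CPM in sham, 251, 267 and 276 CPM in ICH, and 391, 396 and 335 CPM in ICH+P7C3-A20. The treated libraries lay between the other groups without overlap. It changed by -0.81 ± 0.12 in ICH against sham (edgeR adjusted p = 9.07e-04) and by 0.50 ± 0.12 in ICH+P7C3-A20 against ICH (adjusted p = 0.0348). The latter was not called without ICH+P7C3-A20 1 (0.46, edgeR adjusted p = 0.101), and without sham 3 as well it was (0.46, 0.0228). Slc38a1, a glutamine carrier, and Aldh5a1, of GABA breakdown, fell in ICH by 0.60 and 0.50 on the log2 scale, and a further call was Abat, the GABA transaminase (-0.39 ± 0.12), which the naming rule did not take and which was named after its value was seen. Between treated and sham libraries edgeR called 0 of the 9, with 4 at an unadjusted p under 0.05, and DESeq2 called 2 lower.

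The peptide genes act through a receptor set of 12. In the injury comparison edgeR called 2 lower, Npy5r (-1.11 ± 0.32, adjusted p = 0.0269) and Sstr4 (-1.16 ± 0.38, 0.0468), with a median of -0.48. Over all genes tested 10.4% were called lower, and 13 alternatives called 0 to 4 of the receptors lower, with 0 without sham 1, ICH 1 or ICH 3. Npy2r, at -1.09 ± 0.37, was not called (adjusted p = 0.0540), and DESeq2 called 4 of the 12 lower. The treatment comparison gave 3 called higher, the somatostatin receptors Sstr4 (1.45 ± 0.38) and Sstr3 (1.14 ± 0.27) and the cholecystokinin receptor Cckbr (1.45 ± 0.36), with a median of 0.67. Over all genes tested 2.69% were called higher there. Cckbr read 39.2, 13.6 and 19.5 CPM in the treated libraries, with ICH+P7C3-A20 1 far above the rest, against 8.38 to 9.24 CPM in ICH and 6.68 to 12.8 CPM in sham. It was also the receptor called higher in ICH+P7C3-A20 against sham (1.40 ± 0.36, edgeR adjusted p = 0.0493), a count that was 0 with the replicate number as a block and changed in 11 of 13 alternatives, between 0 and 2. In that comparison 4.58% of all genes tested were called higher. Without ICH+P7C3-A20 1 Cckbr was not called against ICH (0.91, edgeR adjusted p = 0.106) or against sham (0.86, 0.10), and without sham 3 as well it was called in both (0.91 and 1.19, adjusted p = 0.0150 and 0.00521). The Sstr4 and Sstr3 calls against ICH were lost without ICH+P7C3-A20 1 (1.17 and 0.87, edgeR adjusted p = 0.162 and 0.102), without sham 3 as well (0.105 and 0.0646) and with the block (0.0695 and 0.0534). Sstr4 in the injury comparison was lost without sham 3 (-0.999, edgeR adjusted p = 0.114).

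Enzymes and granule proteins that mature the peptides numbered 9. In the injury comparison edgeR called 5 lower and 1 higher, with a median of -0.56, against 10.4% lower and 15.6% higher over all genes tested. The prohormone convertases Pcsk1 and Pcsk2 fell by 1.08 and 0.77 on the log2 scale, Scg2 by 0.85 and the amidating enzyme Pam by 0.56. Scg3, named after its value was seen, rose (0.40 ± 0.10). Both convertases, Pcsk1 (0.97 ± 0.23) and Pcsk2 (0.45 ± 0.12) rose in the treatment comparison, with edgeR adjusted p of 0.0276 and 0.0483. The list median was 0.31, and 2.69% of all genes tested were called higher in that comparison. Pcsk1 read 9.81, 11.95 and 9.41 CPM in ICH and 29.2, 15.9 and 16.0 CPM in ICH+P7C3-A20, where library 1 was again the highest. Without ICH+P7C3-A20 1 neither convertase was called (0.62 and 0.35, edgeR adjusted p = 0.0553 and 0.162), and without sham 3 as well Pcsk1 was (0.62, 0.0249) and Pcsk2 was not (0.0733).

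The genes whose log2 CPM followed Slc32a1 most closely over the 9 libraries, among 11037 genes with a mean of at least 2 FPKM in a group, were Enpp5 (Pearson r = 0.988), Dctn6 (0.984), Lrrtm2 (0.978), Klhl13 (0.977) and Gad1 (0.975). For Sst they were Rptor (0.973), Bmyc (0.950), Atg13 (0.925), Napa (0.920) and Pde1a (0.912). These are descriptions over libraries that share their groups. A GABA gene is among the genes nearest to Slc32a1, while no other member is among those nearest to Sst.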

How the data were processed

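Polyadenylated RNA of 9 mouse brains was sequenced from dUTP-marked libraries, per the labels' protocols. The submitters' processing notes name cutadapt 1.9, HISAT2 2.0.4 and StringTie 1.3.4d. How the counts were made, and on which genome build, is not given in the sources used here. Per the file headers, the authors deposited FPKM values and whole-number estimated counts for 35112 genes. Among single-transcript genes, 98.1% to 98.3% of the deposited estimated counts per library were within 5% of proportion to FPKM times length, so they are estimates from coverage. Positions equal those of GENCODE M21 (GRCm38) for 32009 genes.

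Groups and replicates follow the labels. Counts were tested with edgeR 4.0.16 in R 4.3.3: filterByExpr (minimum count 10, minimum total 15), TMM scaling and a robust quasi-likelihood fit with 1 mean per group (9 libraries, leaving 6 residual degrees of freedom), two-sided, with Benjamini-Hochberg adjustment over 21900 genes. The test was checked on simulated counts. Log2 CPM used a pseudocount of 0.5. Alternatives were DESeq2 1.42.0, limma 3.58.1 on log2(FPKM + 1) or log2(FPKM + 0.1) with genes of at least 0.5 FPKM, other scalings and filters, each pair of groups fitted by itself, the replicate number as a block, and single libraries left out. Leaving out sham 3 and ICH+P7C3-A20 1 together was chosen after seeing the data. Figures used matplotlib 3.10.9 (Python 3.11.15).

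All 10 members are named, with at most 4 genes of the smallest p per further list in ICH against sham and in ICH+P7C3-A20 against ICH, and the 5 genes most like Slc32a1 and Sst. Not every gene the rule takes is described. The 13 further lists held GABA handling, lineage, subtype, receptor and peptide processing genes and markers of neuron and glial types. Members and lists were chosen with earlier results of these data known.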

Additional observations from a re-analysis of the deposited data

How the results depend on the processing

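Over 21 alternatives the members gave 630 log2 changes: 580 kept their direction and side of the threshold, 14 lost the call, 25 gained it and 11 changed sign, all of them among changes that were not called. With single libraries left out, Vip in ICH against sham ranged from -0.751 to 0.00378 (the latter without sham 3), and it was 0.00411 without sham 3 and ICH+P7C3-A20 1 together. Cck ranged from -0.127 to 0.729, with -0.104, -0.127 and -0.108 without sham 1, sham 2 and ICH 2. For ICH+P7C3-A20 against sham, Sst ranged from -0.258 to 0.139 (the latter without ICH+P7C3-A20 2). Pvalb ranged from -0.322 to 0.513 with single libraries left out, and was 0.0533, 0.0286 and 0.0311 in limma (quantile-normalized, log2(FPKM + 1) and log2(FPKM + 0.1)), 0.513 without sham 2 and 0.142 without ICH+P7C3-A20 1. The number of members called in ICH against sham was 5 by DESeq2 and 2 to 5 with single libraries left out. In ICH+P7C3-A20 against ICH it was 0 to 1 with single libraries left out. In ICH+P7C3-A20 against sham it was 4 by DESeq2, 1 by limma with either pseudocount, 6 without sham 3 and ICH+P7C3-A20 1 together, and 1 to 6 with single libraries left out, where 6 came without sham 3. Causes were not tested.

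Over all genes, calls ranged from 4075 to 6670 in ICH against sham (5701 as reported) and from 571 to 3402 in ICH+P7C3-A20 against ICH (1914 as reported). Among the lists, calls in ICH against sham ranged from 2 to 6 of 13 transcription factors, 0 to 4 of 12 receptors and 4 to 8 of 9 GABA handling genes. In ICH+P7C3-A20 against ICH they ranged from 0 to 8 pan-neuronal genes (8 by DESeq2) and 0 to 5 receptors. No scaling moved the median of all genes by over 0.1.

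With the replicate number as a block, 3 members were called in ICH against sham, 0 in the treatment comparison (ICH+P7C3-A20 against ICH) and 2 between treated and sham libraries, and Vip in the treatment comparison was 1.73 (edgeR adjusted p = 0.0797). To look for pairing, each gene's group mean was subtracted from its log2 CPM, and the remaining deviations were correlated between libraries. Deviations of same-numbered libraries correlated at -0.231 to 0.205 over 9 pairs, with 2 above 0.1, so the numbers were not taken to pair the samples. The largest such correlation between groups was of ICH 3 with ICH+P7C3-A20 2 (0.350), numbered differently. The deviations of sham 3 correlated with theirs at 0.205 and 0.130, and these 3 libraries had the lowest mitochondrial shares.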

Other observations

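The ratio of Sst to Npy, picked after its values were seen and not tested, separated sham from both haemorrhage groups. In FPKM it was 2.72, 3.13 and 2.18 in sham 1, 2 and 3, 2.01, 1.71 and 1.81 in ICH 1, 2 and 3, and 1.93, 1.60 and 1.70 in ICH+P7C3-A20 1, 2 and 3. All 6 haemorrhage libraries lay below all 3 sham libraries, and sham 3 was nearest to them. By edgeR over all 9 libraries neither gene was called in any comparison; Npy was called higher in ICH+P7C3-A20 against sham in 3 of 21 alternatives.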
